A study of Mus musculus with 62 samples.

Results

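Polycomb repressive complex 2 (PRC2) and its partners were followed through the mouse hippocampus and the HT-22 cell line by the transcript levels of 10 genes. The genes were chosen by name (Ezh2, Ezh1, Eed, Suz12, Rbbp4, Rbbp7, Jarid2, Mtf2, Phf19 and Aebp2) and make up 10 of the 53975 gene identifiers in the deposited tables. On GRCm38, Ezh2 (ENSMUSG00000029687) lies on the minus strand of chromosome 6 from 47530139 to 47595341 and Ezh1 (ENSMUSG00000006920) on the minus strand of chromosome 11 from 101191115 to 101226463. Rbbp7 (ENSMUSG00000031353) lies on the plus strand of chromosome X from 162760402 to 162779092. PRC2 is the enzyme that methylates lysine 27 of histone H3, a mark of silenced genes. Ezh2 and Ezh1 are its alternative catalytic subunits, Eed and Suz12 are needed for activity, and Rbbp4 and Rbbp7 are histone-binding proteins shared with other chromatin complexes. Ezh2 is known mainly from dividing cells and progenitors and Ezh1 from resting cells such as mature neurons. Ezh2 is also known to speed the cleavage of B2 RNA, a transcript of a short interspersed repeat that represses genes and is cut when cells are stressed.

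Hippocampi came from APP NL-G-F mice, which carry a mutated, humanised App gene in place of their own and develop amyloid plaques, and from C57BL/6J wild-type mice, at ages of 3, 6 and 12 months. There were 3 mice in each group except wild type at 3 months, which had 2, and the hippocampi of both hemispheres of a mouse were pooled. HT-22 is an immortalised mouse hippocampal line, here at passage 4. Its cells received a locked nucleic acid (LNA) against Hsf1, the heat shock transcription factor, at 150 nM or a scramble LNA labelled 50 uM for 24 h, followed by 30 uM of amyloid beta 42 or of the reverse peptide. All HT-22 groups thus carried an LNA and a peptide. The groups were reverse peptide with scramble (4 libraries), amyloid beta 42 with scramble (4), reverse peptide with anti-Hsf1 (3) and amyloid beta 42 with anti-Hsf1 (3). The labels call these biological replicates without naming separate cultures, so the p-values for HT-22 measure the spread between these samples, which may be technical. Each RNA was divided into a long-RNA and a short-RNA library, giving 31 of each kind. In whole tissue, fewer cells of a type and less RNA per cell cannot be told apart.

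Levels are TPM (a length-corrected share of a library's transcripts), divided by a scaling factor per library from the median of ratios. Libraries were scaled within the mice or within HT-22, and over all 31 libraries where the systems are set side by side. A gene was called at a Benjamini-Hochberg adjusted p under 0.05 from limma on log2(scaled TPM + 1). All 8 neuron markers reached 1 TPM in the hippocampus. None of the 8 did so in HT-22, where 5 of them, among them Snap25 and Rbfox3, were listed at 0 in every library. All 9 APP libraries and both wild-type libraries at 3 months had Xist at 70.2 scaled TPM or above. The 6 wild-type libraries at 6 and 12 months had Xist at 0.52 or below and Ddx3y, a Y-linked gene, at 18.7 or above. At 6 and 12 months genotype and sex therefore cannot be told apart, which touches the X-linked Rbbp7 most directly. App ranged from 205.6 to 418.7 scaled TPM in the APP mice and from 199.8 to 275.8 in the wild type, so the groups overlapped. Hsf1 averaged 48.0 ± 4.79 (SD, n = 3) and 46.9 ± 4.05 (n = 3) scaled TPM in the 2 anti-Hsf1 groups, with reverse and amyloid peptide. The matching scramble groups averaged 53.5 ± 7.85 (n = 4) and 61.3 ± 9.26 (n = 4), and their ranges overlapped those of the anti-Hsf1 groups. With amyloid beta 42 the log2 difference of Hsf1 was -0.37 (SE 0.14), with a limma p of 0.0235 and an adjusted p of 0.521. By a level built from the deposited coverage, an alternative chosen after the data had been seen, anti-Hsf1 with amyloid beta 42 (10.00 to 10.5) lay below scramble with amyloid beta 42 (10.7 to 15.7), and the groups with reverse peptide overlapped.

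The sharpest contrast in PRC2 lay between the cell line and the tissue, and it differed by subunit. In HT-22, 6 of the 10 genes were higher and 2 were lower than in hippocampus by limma, while 85.5% of the 19596 genes tested were called in this comparison. Phf19 passed the filter on low levels through HT-22 alone. Of the 9 genes that passed it in both systems, 5 were higher and 2 lower. A share of 8 in 10 is near the background and is not a result about PRC2. The direction depends on the scaling: with TPM as deposited 9 PRC2 genes were higher and 0 lower, and with upper quartile scaling 7 and 1. Over all genes the split went from 7491 higher and 9273 lower to 11780 and 5843 with TPM as deposited, and to 8877 and 8128 with upper quartile scaling. The median difference of the 10 genes was 1.43 on the log2 scale, against -0.13 over all genes tested. Both medians include genes that passed the filter in only 1 system, Phf19 (1.55) among them. They are a description and not a test. The share of all genes without overlap was not counted, either between the systems or between groups within a system. The ranges of single genes below are therefore descriptions. Line and tissue also differ in handling, which cannot be told apart from cell identity.

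Ezh2 was high in the cell line and low in the tissue. On the scale common to all libraries, Ezh2 ran from 6.84 to 18.4 scaled TPM in the hippocampus (median 10.8, n = 17). In HT-22 it ran from 57.5 to 80.3 (median 71.3, n = 14), so the systems did not overlap. The log2 difference was 2.62 (SE 0.11, limma adjusted p = 1.14e-17), or 6.15-fold. The group means in HT-22 were 75.0, 69.8, 68.8 and 68.0 for reverse with anti-Hsf1, amyloid with scramble, reverse with scramble and amyloid with anti-Hsf1. Those in hippocampus were 12.6 and 12.5 for APP at 3 and 6 months, 11.2 and 10.8 for wild type at 3 and 6 months, 9.98 for APP and 8.65 for wild type at 12 months. Neighbours in this order overlapped everywhere except at the step between the systems. Gm26625, an antisense transcript inside the Ezh2 locus, ran from 1.11 to 4.59 in HT-22 and from 0.127 to 0.882 in hippocampus, well under Ezh2 in both.

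Ezh1, its paralogue, ran from 23.3 to 37.0 in the hippocampus (median 29.8) and from 9.62 to 33.8 in HT-22 (median 24.2), with overlap. Ezh1 was lower in HT-22 by a log2 difference of -0.39 (SE 0.13, limma adjusted p = 0.00821). The direction for Ezh1 rests on the scaling: with TPM as deposited it was 0.50, when the median of all genes also moved, from -0.13 to 0.62. With upper quartile scaling it was -0.13 (limma adjusted p = 0.376).

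**Figure D1:**
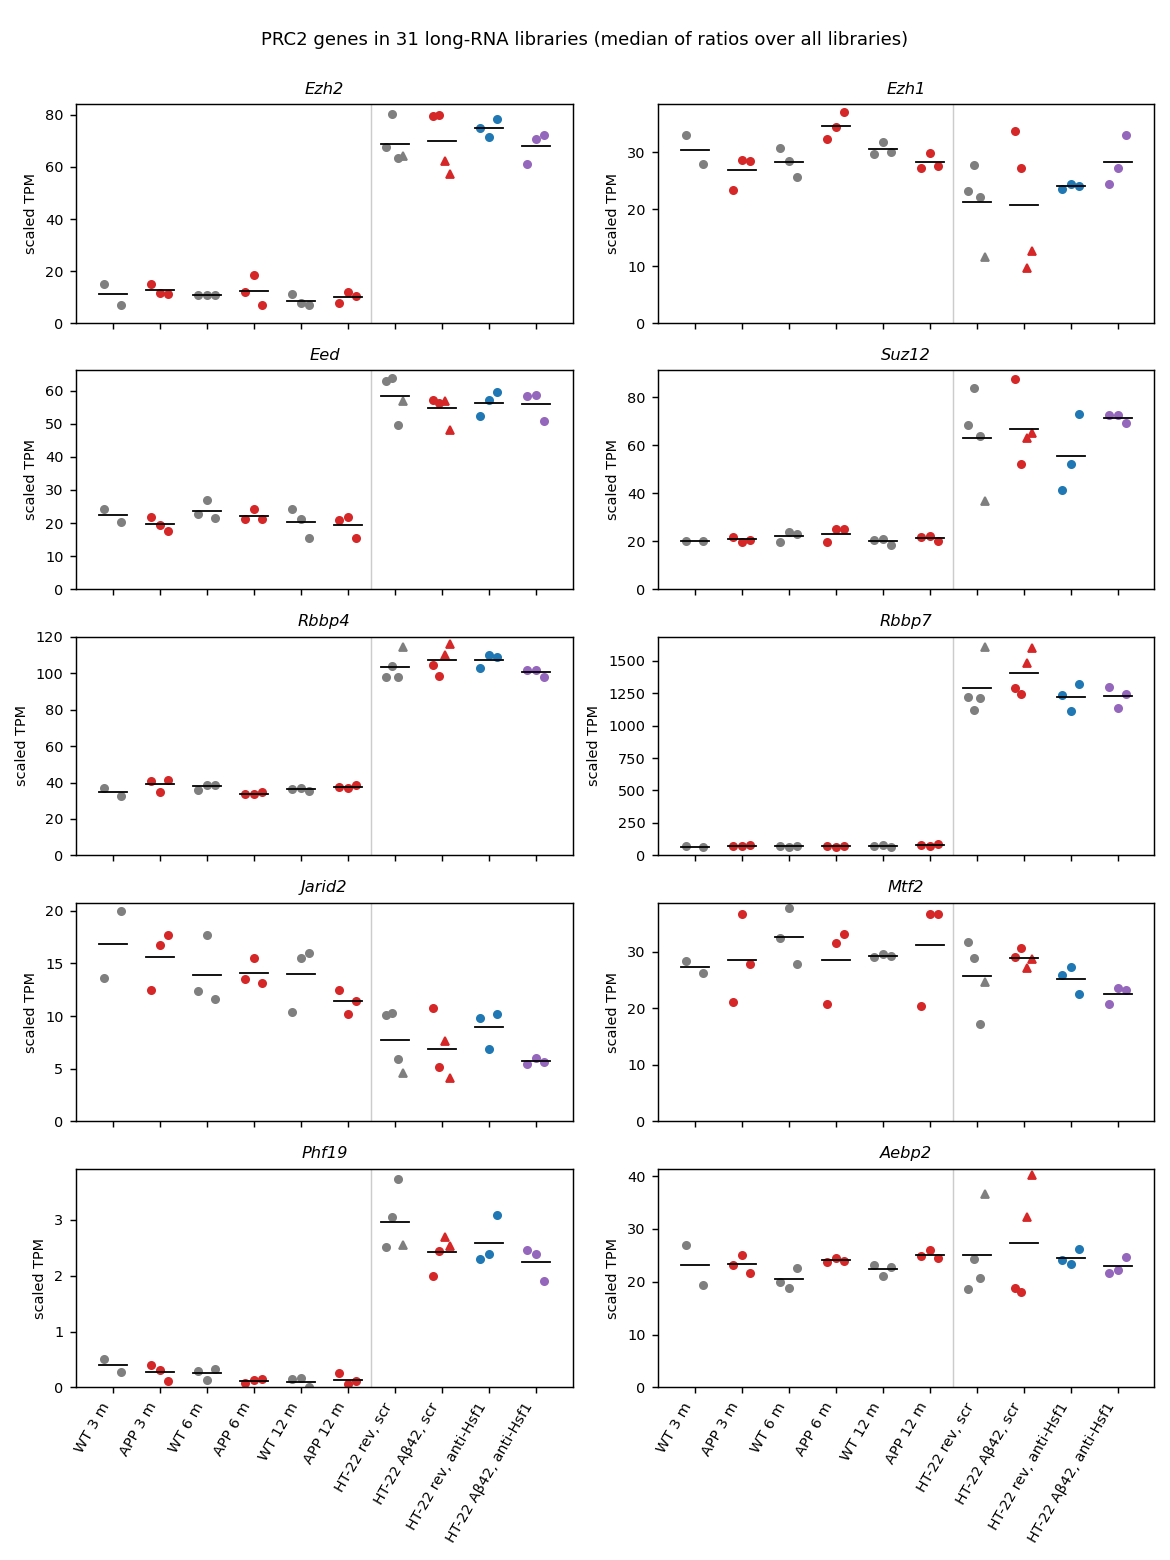
Scaled TPM (common scale over 31 libraries) of each PRC2 gene, 1 point per library and a line at the group mean, for the 6 mouse groups (left of the grey line) and the 4 HT-22 groups. Triangles mark the 3 scramble libraries that stand apart. Ezh2, Eed, Suz12, Rbbp4, Rbbp7 and Phf19 sit higher in every HT-22 library than in any mouse. The share of all genes that do so was not counted, and 85.5% of genes tested were called between the systems. Ezh1 is lowest in the triangles.

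The core subunits that PRC2 needs for activity followed Ezh2. Eed, which binds the methylated histone tail, ran from 15.5 to 27.05 scaled TPM in hippocampus and from 48.2 to 63.7 in HT-22. Suz12, the scaffold, ran from 18.6 to 25.1 in hippocampus and from 36.6 to 87.8 in HT-22. Neither overlapped between systems. The log2 differences were 1.37 (SE 0.06) for Eed and 1.52 (SE 0.09) for Suz12, with limma adjusted p of 9.73e-17 and 4.62e-14.

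Rbbp7, a histone chaperone like Rbbp4, had the highest level of the 10 genes in every library. Rbbp4 ran from 32.6 to 41.2 scaled TPM in hippocampus and from 97.8 to 116.0 in HT-22. Rbbp7 ran from 63.7 to 83.9 in hippocampus and from 1115 to 1609 in HT-22. Rbbp7 was thus 17.6-fold higher in the line (log2 4.14, SE 0.06, limma adjusted p = 7.05e-29), while Rbbp4 was 2.82-fold higher (log2 1.49, SE 0.04, adjusted p = 3.95e-23). Txlng overlaps the end of Rbbp7 in the annotation and also ran higher in HT-22, from 111.2 to 152.7 against 5.53 to 13.8 in hippocampus. With the strand setting of the counting not given in the sources used here, how far reads of Txlng and Rbbp7 were separated was not tested.

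The accessory proteins, which steer PRC2 to its sites, did not move as a block. Phf19, a Polycomb-like protein, was listed between 0 and 0.50 scaled TPM in hippocampus and between 1.90 and 3.73 in HT-22, without overlap. Jarid2, which helps recruit the complex, was lower in HT-22, at 4.10 to 10.8 against 10.2 to 19.98 (log2 -0.91, SE 0.12, limma adjusted p = 1.42e-07). With TPM as deposited, the log2 difference of Jarid2 was -0.07, with a limma adjusted p of 0.612. The log2 difference of Mtf2, another Polycomb-like protein, was -0.20 (95% interval -0.39 to -0.00, limma adjusted p = 0.0571). That of Aebp2, a partner of the Jarid2 form, was 0.08 (-0.12 to 0.28, limma adjusted p = 0.431), and 0.34 with upper quartile scaling (limma adjusted p = 0.00127). With TPM as deposited Mtf2 was higher in HT-22 by 0.69, so its direction also rests on the scaling.

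Promoter windows were read for all 10 genes from RefSeq (GRCm38.p6), from 250 bases before to 30 bases after the start site, 14 windows in all. They were searched on both strands for the E2F words TTTGGCGC, TTTCCCGC, TTTCGCGC and TTTGCCGC, which are bound by the cell cycle factors of that family, and for CCAAT. The words were chosen after the levels had been seen. An E2F word occurred in Ezh2, Suz12 and Phf19, 3 of the 10 genes, against 2.45% of 27025 genes with such windows (a gene with several windows counts once). CCAAT occurred in 8 of the 10 genes, against 39.7% of all. The 3 windows with an E2F word and that of Ezh1, the catalytic subunit without either word, are shown, with matches in capitals:
Ezh2, chr6:47595001-47595280, minus strand: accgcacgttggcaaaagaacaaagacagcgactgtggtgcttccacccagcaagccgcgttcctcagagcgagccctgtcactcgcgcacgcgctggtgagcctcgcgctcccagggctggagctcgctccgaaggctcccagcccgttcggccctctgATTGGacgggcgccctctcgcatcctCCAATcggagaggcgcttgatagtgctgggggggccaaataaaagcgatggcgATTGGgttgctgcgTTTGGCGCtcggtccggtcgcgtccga
Suz12, chr11:79992856-79993135, plus strand: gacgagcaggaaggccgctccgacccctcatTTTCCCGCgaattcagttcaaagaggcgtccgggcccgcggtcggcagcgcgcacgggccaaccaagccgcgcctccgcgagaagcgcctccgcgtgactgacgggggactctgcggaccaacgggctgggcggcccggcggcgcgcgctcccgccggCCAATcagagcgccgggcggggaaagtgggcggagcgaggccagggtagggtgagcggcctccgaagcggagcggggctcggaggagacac
Phf19, chr2:34913947-34914226, minus strand: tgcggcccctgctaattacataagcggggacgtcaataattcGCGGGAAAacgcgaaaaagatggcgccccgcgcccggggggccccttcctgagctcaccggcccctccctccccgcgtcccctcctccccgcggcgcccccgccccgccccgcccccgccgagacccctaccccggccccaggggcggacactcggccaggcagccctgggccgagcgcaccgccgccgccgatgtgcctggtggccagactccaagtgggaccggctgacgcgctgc
Ezh1, chr11:101226434-101226713, minus strand: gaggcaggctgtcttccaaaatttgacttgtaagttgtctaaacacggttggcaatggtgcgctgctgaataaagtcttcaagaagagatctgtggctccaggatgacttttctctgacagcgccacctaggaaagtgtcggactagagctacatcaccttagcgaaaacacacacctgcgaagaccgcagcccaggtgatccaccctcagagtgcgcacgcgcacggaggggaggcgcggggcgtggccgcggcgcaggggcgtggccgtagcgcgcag
Ezh2 holds its E2F word just after the start site and 3 CCAAT words before it. The 3 genes with an E2F word ran higher in HT-22, but Phf19 among them passed the filter on low levels through HT-22 alone. Another 3 genes that ran higher, Eed, Rbbp4 and Rbbp7, hold CCAAT but no E2F word in these windows. The same holds for the windows of Jarid2, which was lower in HT-22, and of Mtf2 and Aebp2, which were not called. A match is a description of the letters and not a test of binding.

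Cell division genes moved the same way between the systems. Their summed level over 15 genes ran from 46.5 to 61.3 scaled TPM in hippocampus and from 1084 to 1242 in HT-22. Only 8 of the 15 passed the filter on low levels in both systems, so these levels are a description, with no test. Top2a, which untangles replicated DNA, averaged 0.930 scaled TPM in hippocampus and 305.9 in HT-22, and Aurkb, a mitotic kinase, averaged 0.115 and 47.4. The part of division in the PRC2 difference was not tested.

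Dividing Ezh2 by Ezh1 within a library removes the scaling, since TPM is per length. The ratio of their TPM ran from 0.185 to 0.653 in hippocampus (median 0.377, n = 17). In HT-22 it ran from 2.19 to 6.48 (median 2.92, n = 14). By TPM, Ezh1 was thus above Ezh2 in every hippocampus and below it in every HT-22 library. The HT-22 order rests on TPM as the level. By the coverage-based level (built from the deposited coverage and chosen after the data had been seen), the ratio ran from 0.0396 to 0.0778 in hippocampus and from 0.443 to 0.938 in HT-22, so Ezh1 was above Ezh2 in all 14 HT-22 libraries as well. By both levels the ratio was higher in every HT-22 library than in any hippocampus. These are descriptions, without a test between the systems.

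**Figure D2:**
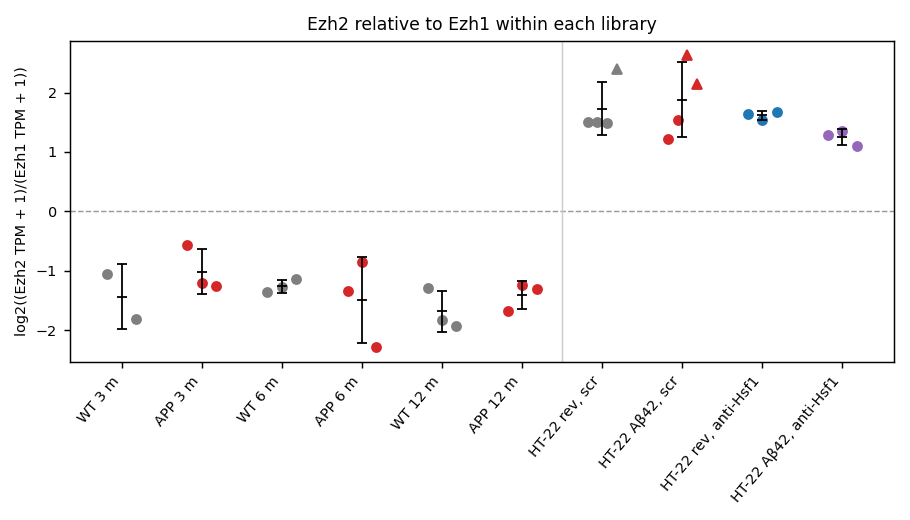
Log2 of the ratio of Ezh2 to Ezh1 TPM (1 added to each) in each library, 1 point per library with the group mean and SD, in 6 mouse and 4 HT-22 groups. By TPM all mice lie below 0 and all HT-22 libraries above it; the triangles, the 3 scramble libraries that stand apart, are the highest.

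Within the hippocampus no PRC2 gene passed the test in any of 7 contrasts of genotype and age. Phf19 was under the minimum mean of 1 TPM there, so 9 of the 10 genes were tested. For APP against wild type, limma called 0 of 9 at 3 months (0.303% of 17840 genes called), 0 of 9 at 6 months (1.66%), 0 of 9 at 12 months (0.443%) and 0 of 9 averaged over ages (0.241%). For age, it called 0 of 9 for APP at 12 against 3 months (3.28%) and 0 of 9 for wild type (0.0617%). It called 0 of 9 for the difference between those age changes (0.0729%). At an unadjusted p under 0.05 there were 2 of the 9 at 6 months, against 16.98% of all genes tested, and 0 in the other 6 contrasts. Of all genes, 13.4% had such a p at 3 months, 7.04% at 12 months and 12.3% averaged over ages. The shares were 16.4% for age in APP, 8.27% for age in wild type and 10.1% for the difference between those. Both wild-type libraries at 3 months were Xist-high and all 3 at 12 months had Y-linked transcripts, so age and sex cannot be told apart in the wild type, nor in that difference.

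Ezh2 varied between mice of a group as much as between groups. At 3 months its level was 11.3, 8.64 and 8.20 scaled TPM in the APP mice, and 11.4 and 5.24 in the wild type. At 6 months it was 8.96, 13.8 and 4.94 in APP and 8.27, 8.24 and 8.03 in wild type. At 12 months it was 5.68, 8.91 and 7.77 in APP and 8.47, 5.68 and 5.35 in wild type. The genotypes overlapped at every age, and the wild-type mice at 6 months were nearly identical while the APP mice spanned the whole tissue range. The log2 differences of Ezh2 were 0.23 (SE 0.33) at 3 months, 0.06 (SE 0.30) at 6 months and 0.18 (SE 0.30) at 12 months. Their limma adjusted p-values were 0.836, 0.948 and 0.990. The 95% interval averaged over ages ran from -0.23 to 0.54, so differences of either sign inside it remain compatible with these mice. Without wild-type replicate 2, the value at 3 months was -0.27, and without APP replicate 2 that at 6 months was -0.26, so both changed sign. The coefficient of variation of Ezh2 over the 17 mice was 29.6% by TPM and 15.0% by a level built from the deposited coverage, an alternative chosen after the data had been seen.

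Ezh1 varied less between mice. At 6 months it was 23.9, 25.8 and 26.7 scaled TPM in APP and 23.5, 21.8 and 19.2 in wild type, so the APP mice were all higher. The log2 difference was 0.24 (SE 0.10), with a limma p of 0.0381 and an adjusted p of 0.261. At 3 months it was 17.4, 21.3 and 21.1 in APP and 24.6 and 20.6 in wild type, with overlap. At 12 months it was 20.3, 22.3 and 20.6 in APP and 22.5, 23.4 and 22.9 in wild type, so the APP mice were all lower there. The log2 differences at those ages were -0.17 (SE 0.12) and -0.12 (SE 0.10), with limma adjusted p of 0.582 and 0.939. How many of all genes separated the genotypes in this way at 6 or 12 months was not counted.

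Among the other subunits, Rbbp4 had the lowest p of any PRC2 gene in the tissue. At 6 months Rbbp4 was 25.0, 25.1 and 25.0 scaled TPM in APP against 27.5, 29.9 and 28.9 in wild type, without overlap. Its log2 difference was -0.19 (SE 0.08), with a limma p of 0.0377 and an adjusted p of 0.259. The share of all genes without overlap there was not counted. At 3 and 12 months the log2 differences of Rbbp4 were 0.16 (SE 0.09) and 0.04 (SE 0.08). Eed, Suz12, Rbbp7, Jarid2, Mtf2 and Aebp2 differed between genotypes by -0.25 to 0.18 at the 3 ages. Jarid2 in APP mice was 9.31, 12.46 and 13.1 at 3 months and 9.31, 7.65 and 8.59 at 12 months, meeting at 9.31. That log2 difference was -0.40 (SE 0.19), with a limma p of 0.0577 and an adjusted p of 0.327.

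The balance of Ezh2 to Ezh1 did not pass a test in the tissue either. The difference of the log2 ratio between APP and wild type was 0.42 at 3 months (exact permutation p = 0.6), -0.24 at 6 months (exact p = 0.8) and 0.28 at 12 months (exact p = 0.3). Averaged over ages, permuting within age, it was 0.16 (exact p = 0.475 over 4000 arrangements). All 8 ratio contrasts had Benjamini-Hochberg adjusted p-values of 0.8 or more. Groups of 3 against 3, or 3 against 2, cannot go below an exact p of 0.1, and all these tests were two-sided.

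**Figure D3:**
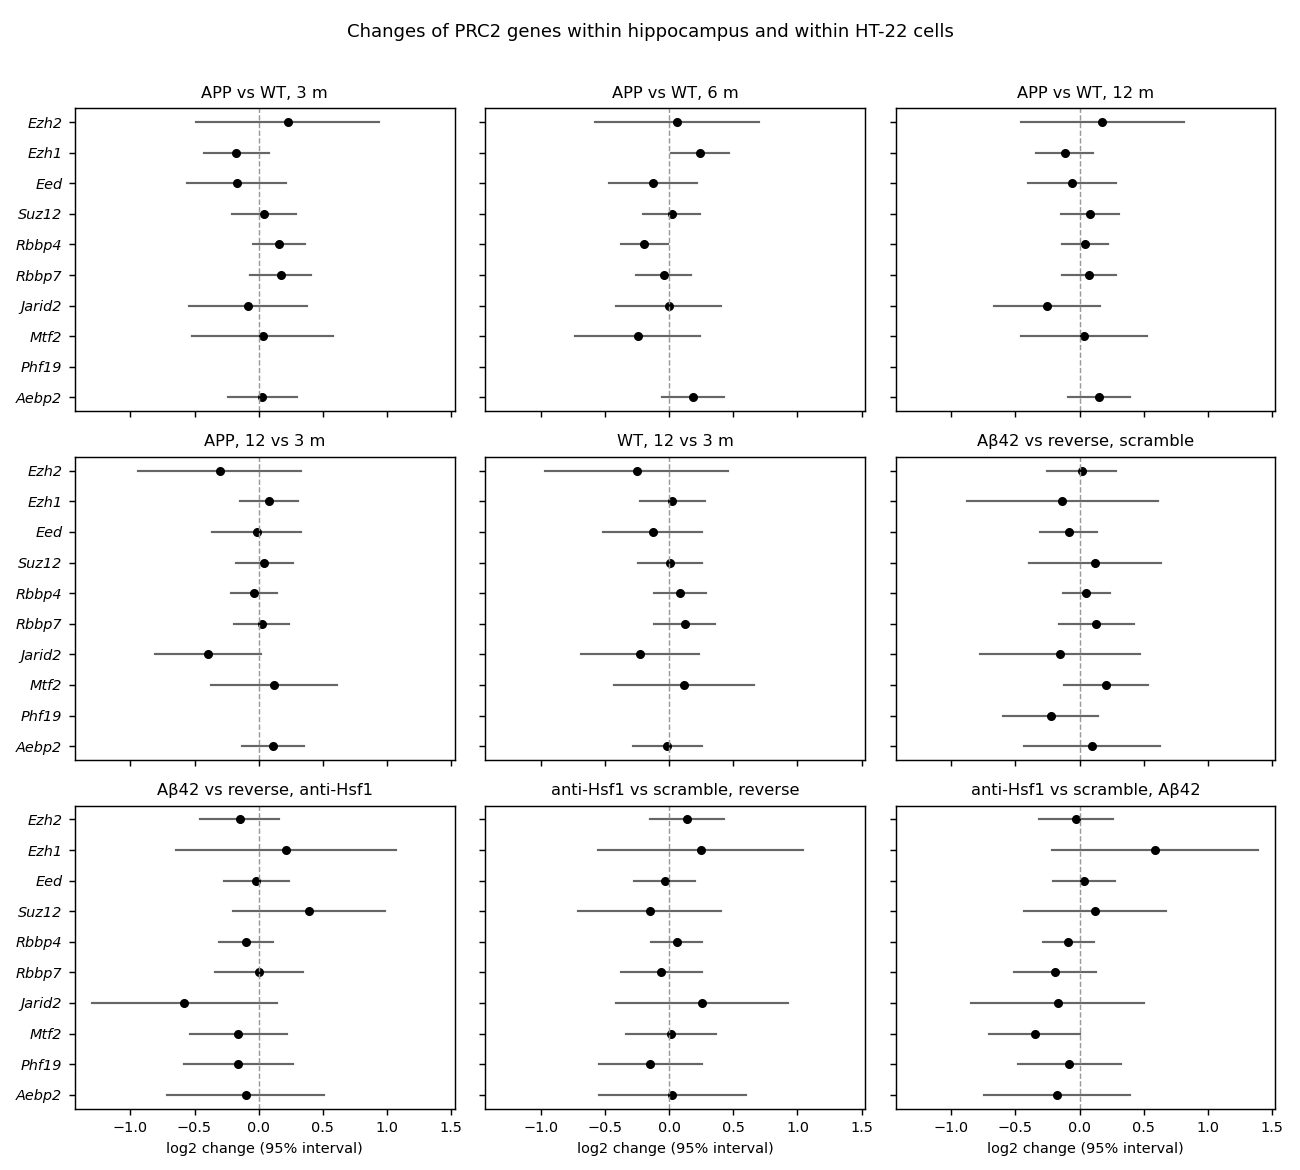
Log2 change (limma, with its 95% interval) of each PRC2 gene in 5 contrasts of the hippocampus and 4 of HT-22; Phf19 was under the level filter in hippocampus. The intervals are widest for Ezh2 in tissue and for Ezh1 and Jarid2 in HT-22.

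In HT-22 cells neither amyloid beta 42 nor the anti-Hsf1 LNA moved a PRC2 gene past the test. All 10 genes were tested. For amyloid beta 42 against the reverse peptide, limma called 0 of 10 with scramble (0% of 17291 genes called) and 0 of 10 with anti-Hsf1 (0%). For anti-Hsf1 against scramble it called 0 of 10 with the reverse peptide (0%) and 0 of 10 with amyloid beta 42 (0.0231%), and for the interaction 0 of 10 (0%). No PRC2 gene had an unadjusted p under 0.05 in any of these 5 contrasts, against 866, 794, 627, 1555 and 899 of all genes.

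Before the single genes, 3 libraries need naming. Amyloid beta 42 with scramble replicates 3 and 4 and reverse peptide with scramble replicate 4 lay at 52.9, 54.4 and 51.3 on the first principal component, which held 43.2% of the variance. The other 11 HT-22 libraries lay between -20.6 and -9.2. In these 3 libraries, Rbbp4, Rbbp7 and Aebp2 were above all the other 11 and Ezh1 below them. That is 4 of the 10 PRC2 genes outside the range of the rest, against 27.4% of the 17291 genes tested. Of 15 cell division genes, 4 were above and 3 below. Both conditions with scramble hold such libraries and neither with anti-Hsf1 does. Without the 3 libraries, an alternative chosen after the data had been seen, limma called 0 of the 10 PRC2 genes in each of the 5 contrasts.

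Ezh1 showed this split most clearly. In amyloid beta 42 with scramble it was 48.9, 39.5, 14.05 and 18.3 scaled TPM. In reverse peptide with scramble it was 33.9, 40.3, 32.3 and 16.7. The last 2 values of the first group and the last of the second are the libraries that stand apart. Ezh1 in the anti-Hsf1 groups was 35.4, 39.7 and 47.8 with amyloid beta 42 and 34.4, 35.5 and 35.1 with the reverse peptide, inside the range of the other scramble libraries. The largest log2 change of any PRC2 gene in HT-22 was that of Ezh1 for anti-Hsf1 against scramble with amyloid beta 42, at 0.59 (SE 0.37, limma adjusted p = 0.581). Without the 3 libraries it was -0.11 (limma adjusted p = 0.889), so its direction rested on them. With limma array weights, which lower the weight of variable libraries, it was 0.96 with a limma adjusted p of 0.0398. Under these weights 1825 of the 17291 genes tested were called in this contrast, against 4 in the main fit. Which libraries lost weight was not examined.

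Aebp2 ran the other way in the libraries that stand apart. It was 27.4, 26.4, 47.2 and 58.6 scaled TPM in amyloid beta 42 with scramble, and 27.1, 35.3, 30.1 and 52.7 in reverse peptide with scramble. It was 31.5, 32.4 and 35.9 in amyloid beta 42 with anti-Hsf1 and 35.3, 33.9 and 38.2 in reverse peptide with anti-Hsf1. The 3 libraries apart are the only ones above 38.2. Rbbp7 was 2170, 2320 and 2313 in them and 1622 to 1922 in the other 11, and Rbbp4 was 160.5, 168.7 and 164.6 against 142.1 to 160.1.

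Ezh2 was at the low end in these libraries but did not separate them. It was 91.0, 83.6 and 92.1 scaled TPM there, against 88.6 to 116.6 in the other HT-22 libraries. Ezh2 was 115.0, 116.1, 91.0 and 83.6 scaled TPM in amyloid beta 42 with scramble and 98.4, 116.6, 92.2 and 92.1 in reverse peptide with scramble. It was 88.6, 103.3 and 104.6 in amyloid beta 42 with anti-Hsf1 and 109.5, 104.2 and 114.3 in reverse peptide with anti-Hsf1. The peptide groups overlapped with scramble, and with anti-Hsf1 the overlap was narrow, 104.6 against 104.2. The log2 difference of Ezh2 for amyloid beta 42 was 0.01 (95% interval -0.25 to 0.28) with scramble and -0.15 (-0.46 to 0.16) with anti-Hsf1. The difference between those effects was -0.16 (SE 0.19, limma adjusted p = 1.00), so an effect of the LNA on the response of Ezh2 was not shown.

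Jarid2 and Suz12 were the most variable of the remaining genes. Jarid2 with anti-Hsf1 was 7.95, 8.72 and 8.20 scaled TPM with amyloid beta 42 and 14.3, 9.96 and 14.9 with the reverse peptide, without overlap. The log2 difference was -0.58 (SE 0.33), with a limma p of 0.106 and an adjusted p of 1.00. The coverage-based level gave a log2 difference of -0.03 for Jarid2, so the direction was kept and the size was not. Suz12 in the same groups was 105.5, 106.0 and 100.4 against 60.5, 75.9 and 106.8, with a log2 difference of 0.39 (SE 0.28, limma adjusted p = 1.00). Mtf2 was lower with anti-Hsf1 than with scramble in cells given amyloid beta 42, at 30.1, 34.4 and 33.8 against 42.2, 44.5, 39.6 and 41.8, without overlap. The log2 difference of Mtf2 was -0.35 (SE 0.16), with a limma p of 0.0503 and an adjusted p of 0.550. For both Jarid2 and Mtf2, the share of all genes without overlap in the same contrast was not counted.

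By TPM, Ezh2 was above Ezh1 in all 4 HT-22 groups, an order that the coverage-based level does not share. With anti-Hsf1 it was 2.51, 2.60 and 2.19 for amyloid beta 42 and 3.18, 2.94 and 3.26 for the reverse peptide, without overlap. The log2 difference was -0.37, with an exact permutation p of 0.1, the smallest that 3 against 3 allows. With scramble the difference was 0.15 (exact p = 0.8). The 3 libraries apart had ratios of 6.48, 4.57 and 5.51, against 2.19 to 3.26 in the other 11.

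Ezh2 was set against B2 RNA in the same samples, because it is known to speed the cleavage of B2. The measure was the percent of B2 counts at positions above 20 of the element, out of positions 2 to 120, in the short-RNA library paired by its title with the long-RNA library. The share averaged 84.4% ± 1.75 (SD, n = 3) in APP and 85.3% ± 5.15 (n = 2) in wild type at 3 months. It averaged 84.8% ± 3.81 and 77.7% ± 9.41 at 6 months and 84.6% ± 4.16 and 84.4% ± 2.06 at 12 months, in the same order with n = 3 each. In HT-22 it averaged 76.5% ± 1.48 (n = 4) for amyloid beta 42 and 73.0% ± 2.64 (n = 4) for the reverse peptide with scramble. With anti-Hsf1 it averaged 70.6% ± 1.49 (n = 3) and 68.6% ± 4.12 (n = 3). For replicate 3 of the last group, the title of the B2 sample names short RNA and its description long RNA. Its share was 71.4%, and without it the group averaged 67.2% ± 4.73 (n = 2).

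Across the 17 mice the linear relation was weak and the rank relation stronger. Pearson's r between Ezh2 and the B2 share was 0.20 (permutation p = 0.443) and Spearman's rho was 0.52 (permutation p = 0.0336, or 0.0671 adjusted over the 2 systems, which does not pass). Without the 2 libraries farthest from the median of Ezh2, r was 0.24 (permutation p = 0.395) and rho was 0.60 (permutation p = 0.0200, or 0.0400 adjusted). Within the 11 Xist-high libraries r was 0.44 (permutation p = 0.173) and within the 6 with Y-linked transcripts it was -0.23 (permutation p = 0.752), where rho was 0.31 (permutation p = 0.564). On deviations from the group means, rho was 0.47 (permutation p = 0.0594). Counting positions above 40 instead of above 20, rho was 0.36 (permutation p = 0.155), and with the coverage-based level of Ezh2 it was 0.44 (permutation p = 0.0782). One library, wild type at 6 months, had a share of 67.3%, the lowest of the tissue, at an Ezh2 level near the median.

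In HT-22 the relation had the other sign. Over 14 libraries r was -0.37 (permutation p = 0.193) and rho was -0.33 (permutation p = 0.246). Without the 2 farthest libraries r was -0.38 (permutation p = 0.229). Without the pair whose B2 sample has labels that disagree, both r and rho were -0.36 (permutation p = 0.225 and 0.224). Without the 3 libraries that stand apart r was 0.03 (permutation p = 0.934), so the negative value rested on them. With TPM as deposited r was 0.11 (permutation p = 0.709) and rho was 0.06 (permutation p = 0.846), so the sign also rests on the scaling. These tests do not pass in HT-22, and the difference between the systems was not tested.

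**Figure D4:**
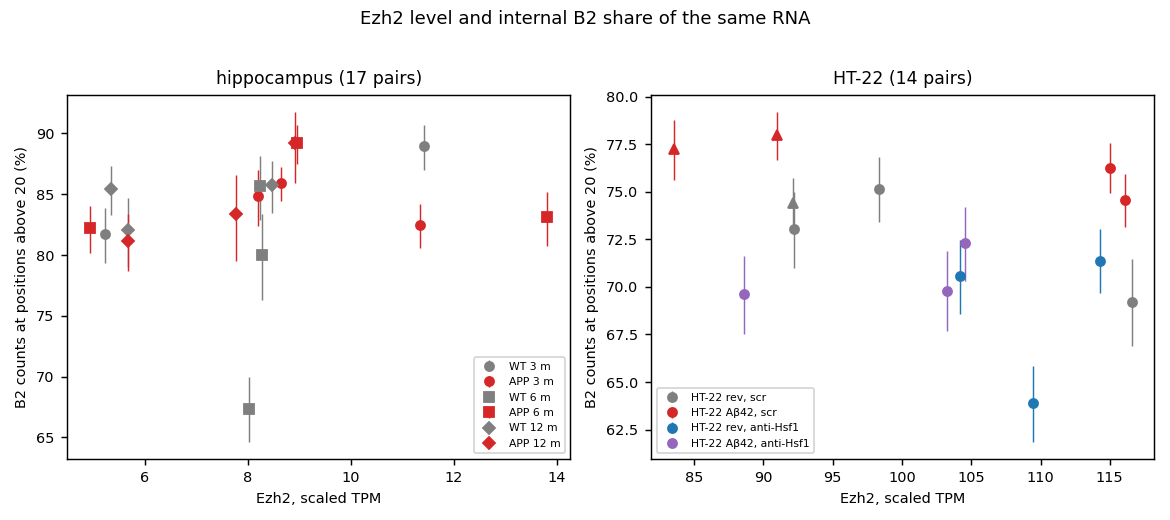
Percent of B2 counts at positions above 20 (with a 95% binomial interval) against Ezh2 in scaled TPM, 1 point per RNA, for 17 mice (left) and 14 HT-22 samples (right); triangles mark the 3 scramble libraries apart. Spearman's rho is 0.52 on the left and -0.33 on the right.

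The other genes of the pathway, on lists drawn up with the results of these samples known, gave few calls inside a system. None of the PRC1 genes (20 listed), other PRC2 partners (5) or H2A deubiquitinase genes (4) was called by limma in any of the 12 contrasts within a system. At an unadjusted p under 0.05 the most in any contrast was 5, 0 and 1. The 5 PRC1 genes, of 19 tested, came at 3 months and averaged over ages, where 13.4% and 12.3% of all genes had such a p. Among the 3 genes of the H3K27 demethylase family, whose active members remove the PRC2 mark, Uty was called in 5 of the 7 mouse contrasts. In APP against wild type at 6 months, for example, its log2 difference was -4.42 (SE 0.15, limma adjusted p = 4.95e-11). Uty is Y-linked, and its calls fall where the wild-type groups with Y-linked transcripts enter. Kdm6a and Kdm6b were called in none of them.

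Between the systems many of these genes differed, as most genes did. Of the 20 PRC1 genes tested, 11 were higher and 6 lower in HT-22, against the 85.5% of all genes tested that were called. Of the 19 that passed the filter on low levels in both systems, 10 were higher and 6 lower. The share of all genes called under that narrower condition was not counted. Cbx2, a Polycomb protein that compacts chromatin, passed the filter in HT-22 alone and averaged 0.743 scaled TPM in hippocampus and 13.6 in HT-22. Pcgf2, a PRC1 subunit, was higher by 1.53 (SE 0.10, limma adjusted p = 1.10e-13) on the log2 scale, and Cbx7 and Yaf2 were lower, by -1.86 (SE 0.12) and -1.92 (SE 0.08). Epop, a PRC2 partner, averaged 16.7 scaled TPM in hippocampus and 0.0161 in HT-22. Of 18 classic Polycomb targets, 16 were listed at 0 in every HT-22 library and 9 in every hippocampus. The share of all genes listed at 0 in each system was not counted, so these counts are a description and not a result about silencing. Hoxa5 and Gata4 averaged 14.1 and 7.25 scaled TPM in HT-22 and were listed at 0 in hippocampus, and Cdkn1c averaged 6.70 in hippocampus and was listed at 0 in HT-22.

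The genes whose levels were most like those of Ezh2 differed between the systems. Over the 17 mice, the highest Pearson correlations included those of Snora47 (0.80), AF357399 (0.80), Cog4 (0.80) and Mir151 (0.79), out of 17840 genes. Over the 14 HT-22 libraries they were those of Gm26768 (0.91), Srpk2 (0.90), Gm44951 (0.89), Gm37621 (0.89) and A330023F24Rik (0.89), out of 17291. Of the PRC2 genes, Eed was closest in the mice (0.44) and Ezh1 in HT-22 (0.70), where the 3 libraries apart enter. Libraries shared their depth and scaling in these values, and correlations this high are picked from many genes.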

How the data were processed

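RNA of 17 mouse hippocampi and 14 HT-22 samples was sequenced as long RNA after rRNA depletion and as size-selected short RNA, per the labels' protocols. The authors deposited 1 gene table per long-RNA library, with TPM, FPKM and coverage per the file headers, and 1 table of B2 counts per position for each short-RNA library, as deposited. Per the submitters' processing notes the tools were FastQC, cutadapt 1.18, BWA 0.7.17, HISAT2 2.1.0, bedtools 2.26.0 and StringTie 1.3.4d, and the builds mm10 and GRCm38. The meaning of a B2 count (end or covered base) was not given in the sources used here. TPM was summed per gene identifier and scaled by the median of ratios. Genes with a mean of 1 TPM or more were fitted with limma 3.58.1 (trend and robust) on log2(scaled TPM + 1), all groups of a system together, with Benjamini-Hochberg adjustment over all genes. The method was tested on simulated data. Ratios and correlations used exact or 100000-fold permutation tests (scipy 1.17.1). TPM keeps no read depth, so the absolute depth is unknown. From the FPKM steps the relative depth spanned 0.724 to 3.04. B2 totals were 432 to 2355 counts in mice and 1550 to 4246 in HT-22, and binomial intervals (95%) cover counting error only. All 10 PRC2 genes are named, and of each other list at most the 2 highest and 2 lowest called genes. Of the 5 genes most like Ezh2 in each system, an item in the mouse list is not reported here. The members and lists were chosen with earlier results of these data known. Replicate numbers of the titles joined each long-RNA library to its short-RNA library. They were not used to pair samples between groups in the main fits.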

Additional observations from a re-analysis of the deposited data

Results flagged for a closer look

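Groups of 4 exist only among the scramble HT-22 libraries, and each was examined on 12 measures with Dixon's ratio at 95%, where chance flags about 1 group in 20. In amyloid beta 42 with scramble, Eed in replicate 4 was 70.1 scaled TPM, far below the other 3 libraries at 81.7, 82.6 and 83.1. In reverse peptide with scramble, the ratio of Ezh2 to Ezh1 TPM in replicate 4 was 5.51, far above the other 3 at 2.85, 2.90 and 2.90. Both libraries are among the 3 that stand apart on the first principal component. These 2 flags came from 24 examinations.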

How the results depend on the processing

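Over 1986 values of PRC2 genes within a system under an alternative, 1958 stayed on the same side of the threshold, 21 gained a call and 7 reversed, and leaving out single libraries gave 0 members called in every contrast within a system. Over all 2365 values, 209 changed sign with neither value called. Skipping the scaling (TPM as deposited) moved the median of all genes by up to 0.60 on the log2 scale in mice and -0.68 in HT-22. It called 8 PRC2 genes at 6 months and 1 averaged over ages, where 10339 and 1353 of all 17840 genes were called. In HT-22 it called 6 for amyloid beta 42 with anti-Hsf1, 7 for anti-Hsf1 with amyloid beta 42 and 5 for the interaction. Of all 17291 genes, 4197, 8766 and 4379 were called there, in the same order. Reversed values were Eed 0.55, Rbbp4 0.50, Rbbp7 0.66 and Jarid2 0.65 for APP against wild type at 6 months, Rbbp7 -0.59 for amyloid beta 42 with anti-Hsf1, Eed -0.68 for anti-Hsf1 with amyloid beta 42 and -0.68 for the interaction, and Ezh1 0.50 and Mtf2 0.69 between the systems. Array weights called 1 PRC2 gene, Ezh1 (0.96), for anti-Hsf1 with amyloid beta 42, where 1825 of all 17291 genes were called. Spearman's rho in hippocampus was 0.593 with TPM as deposited, past the adjusted threshold. The cause of these changes was not tested beyond the shift of the median. Leaving out 1 library at a time between the systems gave 8 to 9 PRC2 genes, Mtf2 gaining a call.

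Deviations from the group means were correlated between long-RNA libraries of different groups. Same-numbered pairs had a correlation above 0.1 in 7 of 40 cases in mice and 3 of 19 in HT-22. Pairs with different numbers did so in 13 of 80 and 9 of 54. The numbers were therefore not taken to pair samples between groups. With a replicate block, 0 PRC2 genes were called in every contrast within a system, and all genes called averaged over ages went from 43 to 14. Counts of all genes called moved more: at 3 months from 54 to 7 without wild-type replicate 2 and 376 without APP replicate 3, at 6 months from 297 to 39 with only the groups compared, 66 without APP replicate 3 and 10339 with TPM as deposited, and for anti-Hsf1 with amyloid beta 42 from 4 to 1825 with array weights. TPM tables set no counting limit on a gene's value.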
